A study of Mus musculus with 7 samples.

Results

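The comparison described here set 1 spleen library of a GdX-deficient mouse against 2 libraries of wild-type mice, all taken 6 h after injection of lipopolysaccharide (LPS), 3 of the 7 libraries of the study. The labels give the mice as C57BL/6, 8 weeks old and injected intraperitoneally with 20 mg/kg LPS. The mutant genotype is written GdX-/- in one place and GdX-/Y in another, the second form denoting a male that lacks the only copy of an X-linked gene. How the allele was made is not given in the sources used here. Whole spleens were crushed on ice before the RNA was extracted, although the labels call the source splenocytes, and each library came from 1 mouse by the study's design text. The other 4 libraries, 2 of each genotype, were taken at 90 min and are used below only for values side by side. No spleen without LPS was analysed here, so every value describes a spleen after LPS.

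GdX, also named UBL4A, is a small ubiquitin-like protein that works with BAG6 and GET4 in handing newly made tail-anchored membrane proteins to the factors that insert them into the endoplasmic reticulum. LPS is a component of the outer membrane of Gram-negative bacteria. Macrophages, dendritic cells and B cells sense it through Toll-like receptor 4, which activates NF-kB and the interferon regulatory factors, and a wave of cytokine and chemokine transcription follows. The spleen joins a red pulp, where macrophages clear old red cells, to a white pulp of B- and T-cell zones, and loss of lymphocytes and entry of myeloid cells are known of it in endotoxaemia.

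Levels are FPKM (fragment counts divided by transcript length and by the mapped total of the library), and differences are those of log2(FPKM + 1) between the GdX-deficient library and the mean of the wild-type pair, so that -1 stands for a 2-fold lower value and low genes show less than their full change. Of the 17920 genes listed, 11378 reached an average of 1 FPKM across all 7 libraries and were compared, and 6542 fell short of that filter. With a single mutant library the comparison is described here without a test. A gene was counted when the mutant value was at least 2-fold from the wild-type mean and outside both wild-type values. By this rule 2501 genes (22.0%) were counted, 1879 of them higher (16.5%) and 622 lower (5.47%) in the GdX-deficient library. At least 4-fold differences were reached by 197 of the higher and 60 of the lower genes. Just inside the limit lay Emg1, at 96.2 FPKM against 249 and 150.5 in wild type, and just outside it Them6, at 24.2 against 48.2 and 50.8. At any size, 54.9% of genes lay above both wild-type libraries and 25.3% below both.

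A few properties of the libraries bear on every value below. Estimated depth was even, at 19100000 fragments for the GdX-deficient and 20100000 and 19900000 for the wild-type libraries. The 2 wild-type libraries were not alike: 997 genes (8.76%) lay 2-fold or more apart between them, and the median absolute difference between them was 0.42, against 0.56 between the genotypes. The median difference over all genes was 0.32, and it became -0.017 after quantile normalization and 0.55 after rescaling without globin genes. Against wild-type replicate 2 alone it was 0.18 and against replicate 1 alone 0.46, so each list median below is to be read against 0.32, or against these values where 1 wild-type library is named. With those scalings the split of counted genes became 951 higher and 881 lower, or 2857 higher and 352 lower. It was 1272 and 615 without wild-type replicate 1, and 2946 and 884 without replicate 2. After the trend on transcript length was removed it was 1843 and 468 of 11180 genes. List counts under an alternative below are to be read against these. The labels do not say whether mice of one group shared a litter, cage or day.

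The targeted gene itself did not separate the genotypes. Ubl4a (chrX:74365718-74368548, GRCm38) measured 10.6 FPKM in the GdX-deficient library and 11.9 and 14.0 in the wild-type libraries, a difference of -0.27 that was not counted. Gm44504 (chrX:74367447-74373349), a predicted gene whose span overlaps the Ubl4a locus, measured 0.66 FPKM in the GdX-deficient library and 51.1 and 24.0 in wild type. All 3 mutant libraries of the study, at 0.66, 1.01 and 1.86, lay below all 4 wild-type libraries, the lowest of which was at 14.5. Reads from the 2 overlapping genes can be split between them by the counting, so the level of either alone is uncertain.

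**Figure D1:**
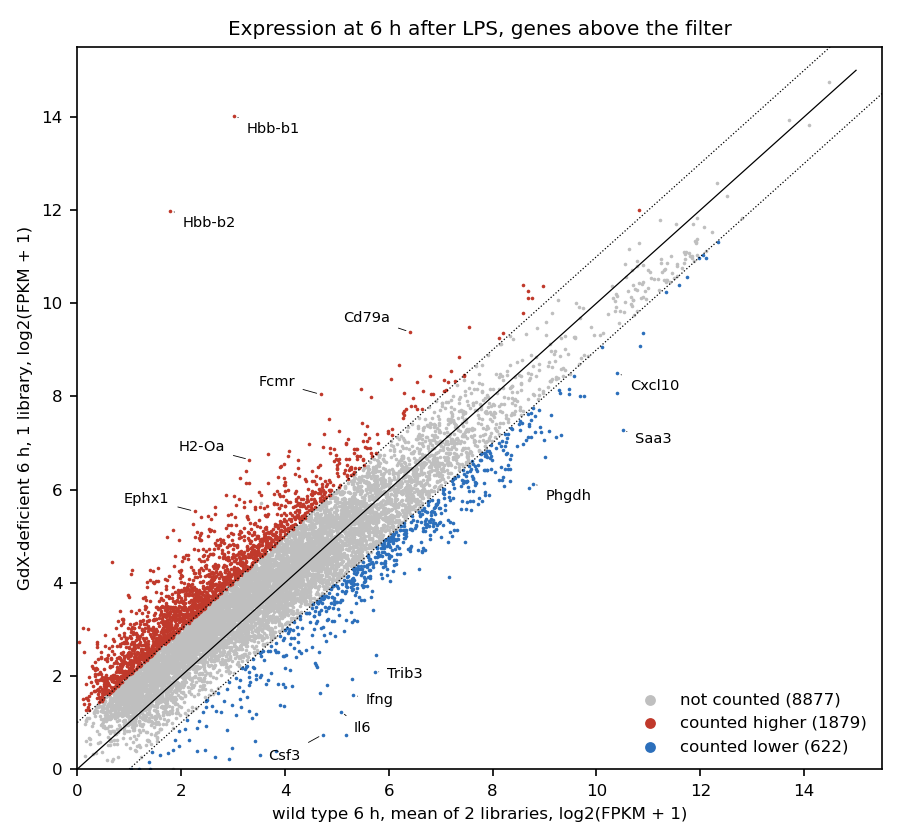
Each point is one of the 11378 genes, with the mean of the 2 wild-type libraries on the x axis and the single GdX-deficient library on the y axis, both as log2(FPKM + 1). The solid line marks equality and the dotted lines a 2-fold difference; the 1879 higher genes form a dense band at low and middle levels, and the 622 lower genes include Csf3, Il6, Ifng and Trib3.

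Many inflammatory cytokine and chemokine genes were lower in the GdX-deficient library, and others were not. NF-kB is a family of dimeric transcription factors held in the cytoplasm by inhibitor of kappa B proteins until a receptor such as Toll-like receptor 4 triggers the loss of the inhibitor. Of 52 cytokine, chemokine and NF-kB target genes, 20 were counted lower in the GdX-deficient library and none was counted higher, against 5.47% and 16.5% of all genes. The lower count was 13 after globin-free rescaling, where 2 genes were counted higher, as they were without wild-type replicate 2. The median difference of the list was -0.77, or -0.50 and -0.85 against each wild-type library alone. The promoters of Il6, Cxcl1 and the interferon-inducible chemokine gene Cxcl10 are printed as the 250 bases before the RefSeq start site (GRCm38.p6), written in the direction of the gene, because each holds a match to a known inducible element in a gene that stood far below wild type. Capitals mark the NF-kB consensus, and in Cxcl10 also the interferon response element (TTTC, any 2 bases, TTTC) read on the opposite strand. Il6 lies at chr5:30012864-30013113 on the plus strand, Cxcl1 at chr5:90890995-90891244 on the plus strand and Cxcl10 at chr5:92348890-92349139 on the minus strand.
Il6: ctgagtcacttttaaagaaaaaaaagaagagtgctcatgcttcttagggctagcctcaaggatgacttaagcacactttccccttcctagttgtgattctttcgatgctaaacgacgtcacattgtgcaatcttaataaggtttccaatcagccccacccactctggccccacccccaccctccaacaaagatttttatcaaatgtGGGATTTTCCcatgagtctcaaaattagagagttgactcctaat
Cxcl1: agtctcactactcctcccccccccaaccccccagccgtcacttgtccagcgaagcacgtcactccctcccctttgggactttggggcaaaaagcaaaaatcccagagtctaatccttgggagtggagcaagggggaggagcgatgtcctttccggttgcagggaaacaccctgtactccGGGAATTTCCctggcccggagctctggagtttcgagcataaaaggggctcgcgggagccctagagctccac
Cxcl10: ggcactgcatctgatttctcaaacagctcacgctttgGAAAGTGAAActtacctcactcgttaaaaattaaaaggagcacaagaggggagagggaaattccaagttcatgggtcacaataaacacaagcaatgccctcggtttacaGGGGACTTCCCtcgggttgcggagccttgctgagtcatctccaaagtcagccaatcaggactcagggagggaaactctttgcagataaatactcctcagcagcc

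The NF-kB match began 44 bases before the start in Il6, 71 bases before in Cxcl1 and 104 bases before in Cxcl10, where a second match overlapped the first. Over promoter windows of 300 bases (250 before and 50 after the start), searched on both strands, 5.80% of 32851 RefSeq promoters and 8.43% of the 9146 compared genes with a promoter held the NF-kB consensus. In the inflammatory list 12 of 38 promoters held it. Among all counted genes the share was 8.55% of the lower and 8.78% of the higher, both close to that of all compared genes. A match is a stretch of letters and not a measured binding site.

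The members farthest below wild type encode secreted mediators, but other secreted members were closer to wild type or not counted. Csf3, the growth factor that drives neutrophil production, measured 0.67 FPKM in the GdX-deficient library and 29.0 and 22.3 in the wild-type libraries, a difference of -3.99. Il6, the fever and acute-phase cytokine, measured 1.35 against 34.7 and 31.1 (-3.85), which at the estimated depth is about 23 fragments in the mutant library. Ifng, encoding interferon gamma from natural killer and T cells, measured 1.99 against 35.8 and 42.3 (-3.74). In all 3 genes the mutant library lay far below both wild-type libraries, which were close to each other. The neutrophil-attracting chemokine Cxcl1 measured 4.44 FPKM in the mutant library and 66.2 and 42.7 in wild type (-3.32). The acute-phase gene Saa3 measured 153 against 2040.4 and 1033 (-3.24), with the wild-type libraries themselves apart. The anti-inflammatory cytokine Il10 was low in the same library, at 1.37 against 10.7 and 7.33 (-2.06). The other secreted members counted lower were the cytokines Il27 and Il1a and the chemokines Ccl2, Ccl3, Ccl4, Ccl7, Cxcl2, Cxcl3 and Cxcl5, with differences from -2.30 (Ccl7) to -1.08 (Il1a).

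Receptors, enzymes and feedback genes made up the rest of the lower members. Cd40, a costimulatory receptor of antigen-presenting cells, measured 53.3 FPKM in the mutant library and 188 and 191 in wild type (-1.81), and Cd80, a ligand of CD28 on T cells, differed by -1.45. Ptgs2, the inducible cyclooxygenase, differed by -1.13. Nfkbia, the inhibitor that NF-kB itself induces, measured 287 against 930.3 and 536 (-1.30), and Ccl2, the main monocyte chemokine, 31.6 against 89.5 and 57.6 (-1.16). Without wild-type replicate 1 these differences became -0.90 and -0.85 and neither gene was counted. Ccl2 was also not counted after globin-free rescaling (-0.88) or removal of the transcript length trend (-0.64). The related feedback gene Nfkbiz differed by -1.07. Red pulp macrophage and iron recycling genes summed to 7656 FPKM in the mutant library and 5155 and 5280.4 in wild type. The sum includes the ferritin chains Fth1 and Ftl1 and is not a measure of macrophage content. The part of macrophages in the inflammatory values was not tested.

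Several central inflammatory genes were not counted. Tnf, an early macrophage cytokine, measured 27.9 FPKM in the GdX-deficient library and 35.9 and 31.8 in wild type (-0.27). Il1b, the inflammasome-processed cytokine, measured 141 against 79.6 and 115 (0.56), above both wild-type libraries. The mutant values of Nos2, at 1.52 FPKM, and Ifnb1, at 0.27, lay between the wild-type values. The NF-kB subunits Nfkb1, Nfkb2 and Relb differed by -0.10, -0.086 and 0.24, and the feedback ubiquitin editor Tnfaip3 by -0.83. Il12b, a subunit shared by IL-12 and IL-23, measured 1.31 against 2.65 and 3.83 (-0.86) and was counted with a pseudocount of 0.1 (-1.22), after quantile normalization (-1.35) and without wild-type replicate 1 (-1.06).

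**Figure D2:**
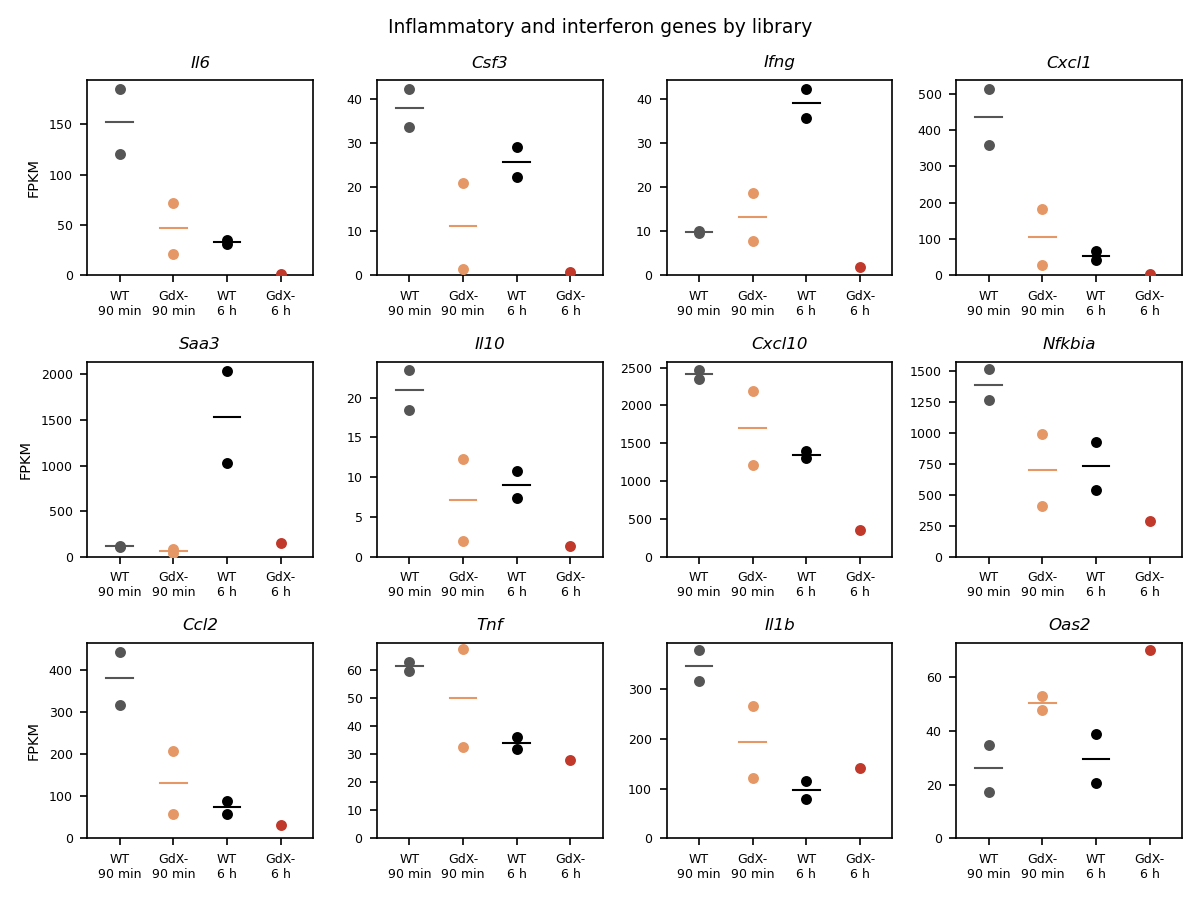
FPKM on the y axis of each panel in every library, grouped by genotype and time after LPS (WT wild type, GdX- GdX-deficient), with a horizontal bar at the mean of groups of 2. At 6 h the mutant point lies below both wild-type points for Il6, Csf3, Ifng, Cxcl1, Saa3, Il10, Cxcl10, Nfkbia, Ccl2 and Tnf, and above both for Il1b and Oas2.

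Interferon-stimulated genes, which encode antiviral effectors and are switched on by interferons, had a list median near 0, below the 0.32 of all genes. Of 41 genes, 2 were counted higher, a share well below the 16.5% of all genes, and 1 lower. The higher count was 0 without wild-type replicate 1 and 7 without replicate 2. The list median was -0.067, and its sign changed to positive after quantile normalization (0.13), globin-free rescaling (0.17), removal of the transcript length trend (0.17) or without wild-type replicate 2 (0.089). The median of all genes in those runs was -0.017, 0.55, 0.32 and 0.46 in turn. Only after quantile normalization did the list lie above it. The lower gene was Cxcl10, a chemokine for activated T cells, at 359.5 FPKM against 1394 and 1304 (-1.90). The related Cxcl9 measured 115 against 200.1 and 223 (-0.88) and was not counted. Oas2, a sensor of double-stranded RNA, measured 70.2 FPKM in the mutant library and 20.5 and 38.8 in wild type (1.28). It was above the 2 wild-type values, but without wild-type replicate 1 the difference was 0.84 and the gene was not counted. Ifit1 and Ifit3, induced strongly by type I interferon, differed by -0.067 and 0.16. In this list 21 of 33 promoters held the interferon response element on either strand, against 4.20% of all compared genes with a promoter.

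Most genes of ATF4 and amino acid synthesis were lower in the GdX-deficient library. ATF4 is the transcription factor of the integrated stress response: it is translated when initiation factor eIF2 is phosphorylated and raises genes for amino acid synthesis, amino acid transport and tRNA charging. Of 32 genes, 20 were counted lower and none higher, against 5.47% and 16.5% of all genes, with a median of -1.49 (-1.47 and -1.61 against each wild-type library alone). Of 20 cytosolic aminoacyl-tRNA synthetases, which join amino acids to their tRNAs, 12 were counted lower and none higher, against the same shares, with a median of -1.09. Both medians kept their sign in every alternative run, between -1.61 and -1.22 for the first list and between -1.36 and -0.82 for the second. Sequences of 3 members are shown because they hold the composite ATF4 site TGATGNAA, written in capitals. Asns (chr6:7693210-7693459, minus strand) and Pycr1 (chr11:120643749-120643998, minus strand) are given as 250 bases before the start, and Trib3 (chr2:152344028-152344057, minus strand) as 30 bases that begin 3 bases after it, where the site lies on the opposite strand (match TGATGTAA, read in the printed line as TTACATCA).
Asns: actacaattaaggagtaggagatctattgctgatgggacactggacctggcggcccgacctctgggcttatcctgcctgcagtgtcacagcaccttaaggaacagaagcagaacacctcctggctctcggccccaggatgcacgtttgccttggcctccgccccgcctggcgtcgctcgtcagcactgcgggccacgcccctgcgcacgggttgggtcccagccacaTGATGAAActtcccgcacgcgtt
Pycr1: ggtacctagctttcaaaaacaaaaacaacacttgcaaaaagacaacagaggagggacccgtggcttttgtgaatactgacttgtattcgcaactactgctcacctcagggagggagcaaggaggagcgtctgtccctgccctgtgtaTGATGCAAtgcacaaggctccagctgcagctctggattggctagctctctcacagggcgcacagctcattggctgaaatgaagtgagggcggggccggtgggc
Trib3: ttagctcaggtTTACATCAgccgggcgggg

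The match began 23 bases before the start in Asns, 103 bases before in Pycr1 and 14 bases after it in Trib3. It was found in 7 of 29 promoters of the ATF4 list and in 5 of 13 of the synthetases, against 2.81% of all compared genes with a promoter and 3.97% of all RefSeq promoters. Among all counted genes it was present in 5.57% of the lower and 2.50% of the higher promoters.

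Regulators and stress markers were among the lower genes. Trib3, a pseudokinase that feeds back on ATF4, measured 3.27 FPKM in the GdX-deficient library and 51.1 and 52.8 in wild type, a difference of -3.63 with the wild-type values close together. Chac1, which degrades glutathione, measured 1.54 against 10.6 and 20.3 (-2.63). Atf4 itself measured 193 against 635 and 494 (-1.53), and Atf3, a related stress factor, 9.74 against 45.8 and 56.5 (-2.27). The endoplasmic reticulum stress factor Ddit3 (CHOP) differed by -0.72 and the phosphatase subunit Ppp1r15a by 0.07, neither counted.

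Enzymes of serine and one-carbon metabolism in the list were lower. Phgdh, the first enzyme of serine synthesis, measured 69.0 FPKM against 472 and 403 (-2.64). The next steps, Psat1 and Psph, differed by -2.58 and -1.86. Shmt2, which passes the one-carbon unit of serine to folate in mitochondria, measured 64.5 against 393 and 439.6 (-2.67), and Mthfd2, the next enzyme there, differed by -2.12. Enzymes of other amino acids followed: Pycr1 of proline synthesis measured 2.47 against 24.1 and 30.3 (-3.01), Asns of asparagine synthesis 14.6 against 39.2 and 49.1 (-1.53), Cth of cysteine synthesis 0.23 against 9.74 and 11.2 (-3.22), and Bcat1 of branched-chain amino acid turnover 0.53 against 10.2 and 9.34 (-2.82). In each of these genes the mutant value was more than 2-fold below the lower wild-type value.

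Amino acid transporters split. The cationic amino acid carrier Slc7a3 measured 0.31 FPKM in the mutant library and 12.8 and 13.7 in wild type (-3.44). Slc7a5 and Slc3a2, the 2 chains of the large neutral amino acid carrier, differed by -2.02 and -1.14, and Slc7a1 by -1.46. Slc7a11, the cystine carrier, was not counted, at 4.76 against 2.94 and 3.84 (0.40). Among the synthetases Lars for leucine measured 18.7 FPKM against 83.6 and 107 (-2.28), Eprs for glutamate and proline 34.0 against 177 and 143 (-2.19), and Gars for glycine 45.9 against 167 and 216 (-2.03). For all 3 the mutant library lay far below both wild-type libraries.

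At 90 min the ATF4 list was at a low level in every library. Trib3 lay at 0.51 and 0.72 FPKM in the GdX-deficient and 0.63 and 0.70 in the wild-type libraries, and Phgdh at 33.5 and 39.3 in the GdX-deficient and 52.2 and 44.7 in the wild-type libraries. The list's median genotype difference at that time was -0.18, with 1 gene counted higher and 2 lower, against 1.66% and 1.53% of all genes at 90 min. Summed over the list, the FPKM of the 6 h mutant library was 964, close to the 1027 and 1041 of the 90 min wild-type libraries and far from the 2953 and 2913 of the 6 h wild-type libraries. The change of the genotype difference between the times was not tested.

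The opposite picture was seen for antigen presentation by MHC class II, the surface molecules with which B cells, dendritic cells and macrophages show peptides to CD4+ T cells. Of 12 genes, 11 were counted higher in the GdX-deficient library (16.5% of all genes) and none lower, with a median of 1.93 (1.95 and 1.96 against each wild-type library). The count was 11 in every alternative run. H2-Oa and H2-Ob, the chains of the DO molecule that modulates peptide loading in B cells, measured 98.9 and 108 FPKM in the mutant library. The wild-type libraries were at 10.5 and 7.66 for H2-Oa and at 11.5 and 12.1 for H2-Ob, which gave differences of 3.33 and 3.09. Ciita, the master transcriptional activator of the class II genes, measured 40.2 against 3.19 and 7.53 (2.79). The peptide-loading genes H2-DMa, H2-DMb1 and H2-DMb2 differed by 1.92, 1.82 and 2.69. The class II chains themselves were abundant: H2-Aa measured 1347 against 401 and 367 (1.81), and Cd74, the invariant chain, 4105 against 1836 and 1763 (1.19). The cathepsin Ctss, which trims the invariant chain, was the member not counted (0.21).

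At 90 min the genotypes were closer together. H2-Oa measured 87.4 and 96.3 FPKM in the 90 min GdX-deficient and 109 and 84.8 in the 90 min wild-type libraries, all near the 6 h mutant level, and the 2 wild-type libraries at 6 h were the low ones. Ciita was at 12.6 and 31.8 in the mutant and at 7.60 and 10.1 in the wild-type libraries at 90 min. It was the 1 gene of the list counted higher then, with none lower, against 1.66% and 1.53% of all genes. The list median of the genotype difference at 90 min was -0.052. Genes of MHC class I and the immunoproteasome, which present peptides to CD8+ T cells, gave no such gap. None of 17 was counted higher and 1 lower, against 16.5% and 5.47% of all genes, so the lower count is near the background share. The lower gene was the proteasome activator Psme2 (-1.05). It was not counted without wild-type replicate 1 (-0.66) or under any of the 3 rescalings (-0.76 quantile, -0.77 globin-free, -0.55 length). The class I list median of -0.10 changed sign under quantile normalization (0.20), globin-free rescaling (0.17), length trend removal (0.10) and against wild-type replicate 2 alone (0.037).

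**Figure D3:**
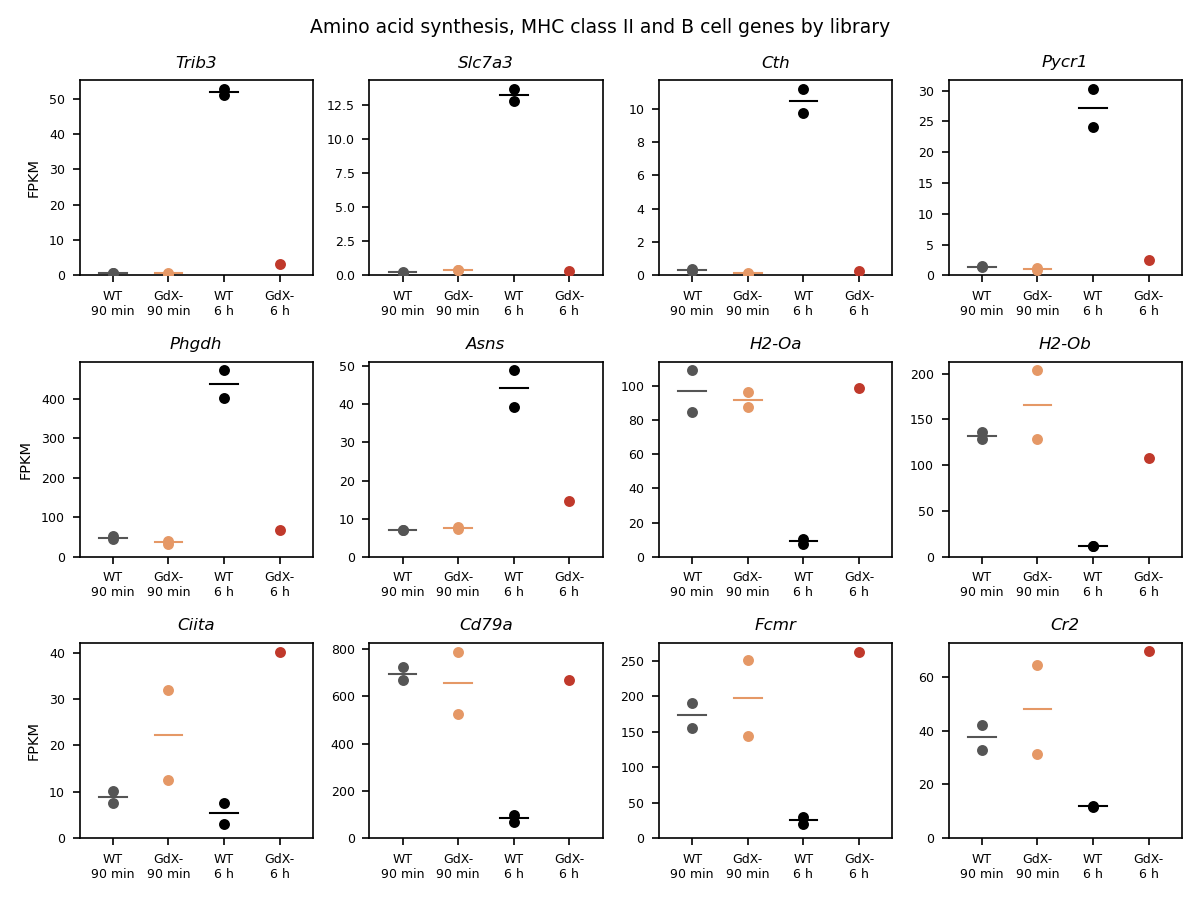
FPKM on the y axis in every library for genes of the ATF4 and amino acid synthesis list, of MHC class II and of B cells (Cd79a, Fcmr and Cr2), grouped by genotype and time after LPS (WT wild type, GdX- GdX-deficient), with a bar at the mean of groups of 2. For Trib3 and Phgdh the 2 wild-type libraries at 6 h stand above all others, and for H2-Oa and H2-Ob they stand below all others.

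Marker genes of B cells, like those of class II, stood above wild type. Of 21 markers, 15 were counted higher, beside 16.5% of all genes, and none lower, with a median of 1.63. Cd79a, a signalling chain of the B-cell receptor, measured 667 FPKM in the GdX-deficient library and 99.4 and 70.7 in wild type (2.98). Fcmr, the receptor for IgM, measured 263 against 20.0 and 30.6 (3.35), and Cr2, the complement receptor of mature B cells, 69.6 against 12.0 and 11.7 (2.46). The mutant value was more than 5 times the higher wild-type value in all 3. Not every marker stood apart: the B-lineage factors Pax5 and Ebf1 differed by 0.025 and 0.34, and the chemokine receptor Cxcr5 by -0.12. The markers summed to 3706 FPKM in the mutant library, 1212 and 1334 in wild type at 6 h, 3076 and 4224 in the mutant and 3532 and 3537 in the wild-type libraries at 90 min. In bulk RNA, fewer cells of a type and less RNA per cell cannot be told apart, and the part of B-cell content in the class II values was not tested.

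T-cell and natural killer genes showed smaller gaps. Of 22 T-cell markers, 11 were counted higher and none lower (median 1.01), where all genes gave 16.5% and 5.47%. Against wild-type replicate 2 alone 6 were counted higher, where 1272 of all 11378 genes were. Thy1, a surface glycoprotein of mouse T cells, measured 60.5 FPKM against 9.53 and 11.3 (2.44), and the coreceptor Cd4 22.1 against 5.15 and 7.72 (1.66). The receptor chains Cd3g, Cd3e and Cd3d differed by 1.49, 1.10 and 0.36, the last not counted. Of 17 natural killer and cytotoxic genes, 6 were counted higher and 1 lower, the second at the share of all genes. Klrd1 and Ncr1, receptors of natural killer cells, differed by 1.71 and 1.72. The lower gene was Tbx21, the factor T-bet of type 1 immunity, at 8.01 against 24.9 and 33.7 (-1.74). Ifng and Tbx21 thus lay below wild type in a library whose natural killer receptors lay above it, and after quantile normalization 2 natural killer genes were counted higher.

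Dendritic cell genes were mixed. Of 15, 2 were counted higher, near the 16.5% of all genes, and none lower, while leaving out wild-type replicate 1 gave 1 higher and 2 lower. The 2 higher genes were the integrin Itgax at 13.3 FPKM against 2.41 and 3.66 (1.84) and Clec9a of cross-presenting cells at 1.04. Clec9a was not counted without wild-type replicate 1 (0.95) or after quantile normalization (0.47). The migration receptor Ccr7 and the activation marker Cd83 differed by -0.77 and -0.63, and the list median of 0.068 turned negative when genes averaging under 5 FPKM were left out (-0.27) and, close to 0, under quantile normalization (-0.0049).

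Genes of red pulp macrophages, the cells that recycle iron from old red cells, were higher in part. Of 22 genes, 10 were counted higher and none lower (median 0.96), beside 16.5% of all genes counted higher. Slc40a1, the iron exporter ferroportin, measured 18.3 FPKM in the mutant library and 1.26 and 2.07 in wild type (2.87). Cd5l, a secreted macrophage protein, measured 50.1 against 8.36 and 6.37 (2.62), and Adgre1, the macrophage antigen F4/80, 42.3 against 8.65 and 15.3 (1.79). The lineage factor Spic was just below the limit at 0.97, and the ferritin chains Fth1 and Ftl1 differed by 0.56 and 0.53.

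Neutrophil genes were higher in part. Of 24 genes, 11 were counted higher and none lower (median 0.85), and 7 were counted higher under quantile normalization, beside 16.5% of all genes without it. Mmp9, a granule protease, measured 29.3 FPKM against 3.63 and 4.69 (2.56), and Cxcr2, the receptor for Cxcl1 and Cxcl2, 40.1 against 9.10 and 8.40 (2.08). S100a8 and S100a9, the abundant calprotectin chains, measured 1222 and 1102 FPKM in the mutant library. In wild type S100a8 was at 475 and 352 and S100a9 at 519 and 324, differences of 1.58 and 1.42. Lcn2, which is also in this list and is induced by inflammation, lay below wild type, at 322 against 476 and 629 (-0.76, not counted). At 90 min the mutant libraries were far apart in this list, at sums of 1444 and 5331 FPKM, against 1540.2 and 1078 in wild type, 3224 in the 6 h mutant library and 1811 and 1613 in wild type at 6 h.

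Red cell genes were mostly higher in the GdX-deficient library. Of 29 genes of red cells and their precursors, 22 were counted higher (all genes 16.5%) and none lower, with a median of 1.66. Without Hbb-b1 and Hbb-b2, described next, 20 of 27 were counted higher and the median was 1.59. Hbb-b1 and Hbb-b2, adult beta-globin genes, measured 16577 and 4059 FPKM in the GdX-deficient library. In the wild-type libraries Hbb-b1 was at 7.50 and 6.70 and Hbb-b2 at 3.68 and 1.55. The beta-globin genes Hbb-bs and Hbb-bt, near-identical copies that the counting can confuse with them, were present in all 3 libraries: Hbb-bs measured 14413 against 18786 and 16267 (-0.28) and Hbb-bt 3194 against 4921 and 3728 (-0.42). The same split held at 90 min, where Hbb-b1 lay at 44998 and 32880.2 in the mutant and 13.8 and 8.11 in the wild-type libraries. Hbb-b1 and Hbb-b2 were thus abundant in all 3 mutant libraries and near 0 beside Hbb-bs and Hbb-bt in all 4 wild-type libraries. Mouse strains carry different beta-globin haplotypes, and whether these mice, all labelled C57BL/6, share one was not tested, so the 2 differences cannot be read as changes of expression. Slc4a1 and Car2 are not globin genes, but whether a strain difference bears on them was not tested. Slc4a1, the anion exchanger band 3, measured 125 against 14.6 and 30.1 (2.52), and Car2, a carbonic anhydrase, 254 against 44.3 and 55.3 (2.34). Globin genes took 13.6% of the FPKM sum of the mutant library and 9.46% and 7.73% of the wild-type ones.

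Structural cell genes of the spleen were in part above wild type. Of 24 stromal, matrix and smooth muscle genes, 8 were counted higher and none lower (median 0.78), and of 18 endothelial genes, 4 higher and none lower (median 0.75), the second count near the 16.5% of all genes counted higher. The stromal count includes Thy1, also a T-cell marker. Under quantile normalization 3 stromal and 2 endothelial genes were counted higher, and 13 and 8 without wild-type replicate 2. Over all 11378 genes these runs counted 951 and 2946 higher. Des, the muscle intermediate filament desmin, measured 31.0 FPKM against 6.85 and 6.19 (2.09), and Col1a1, a chain of type I collagen, 5.25 against 0.62 and 1.83 (1.55, and 0.95, not counted, after quantile normalization). The stromal chemokines Cxcl12, Ccl19 and Cxcl13, which place lymphocytes in the white pulp, differed by 0.43, 0.28 and 0.28 and were not counted. Plvap, a protein of fenestrated endothelium, measured 68.1 against 25.8 and 28.0 (1.31). The stromal list had its median at -0.99 at 90 min, and so lay on opposite sides of 0 at the 2 times. At 90 min 11 of its genes were counted lower and none higher, against 1.53% and 1.66% of all genes. The change between the times was not tested.

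Coagulation genes, which LPS turns towards clotting, had no common direction. Of 21 genes, 3 were counted higher and 1 lower, against 16.5% and 5.47% of all genes. There were 5 higher genes without wild-type replicate 2 and 2 lower genes without replicate 1, and quantile normalization turned the balance to 1 higher and 3 lower. The urokinase gene Plau measured 6.04 against 1.70 and 1.33 (1.49), the anticoagulant receptor Thbd 7.80 against 1.47 and 3.14 (1.46), and the factor XIII subunit F13a1 3.61 against 0.56 and 1.00 (1.38). Metallothioneins, which bind zinc and are raised by glucocorticoids, metals and cytokines, were lower: Mt1 measured 103 against 740.3 and 356 (-2.30) and Mt2 139 against 811 and 435 (-2.08). The acute-phase gene Orm1 was at 0.36 against 6.96 and 6.78 (-2.53). The antiprotease gene Serpina3i went the other way, at 32.7 against 3.73 and 4.75 (2.69). Of 16 glucocorticoid response genes, 1 was counted higher, the receptor Nr3c1 (1.15), and 2 lower, both of them the metallothioneins. Nr3c1 was not counted without wild-type replicate 1 (0.91), and Plau (0.85), Thbd (0.88) and F13a1 (0.75) were not after quantile normalization.

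Heat shock genes, which encode chaperones for unfolded proteins, went both ways. Of 18, 8 were counted higher and 2 lower, against 16.5% and 5.47% of all genes, the lower count being 1 without wild-type replicate 1 and 4 without replicate 2. The inducible cytosolic chaperones Hspa1b and Hspa1a, near-identical copies, measured 9.52 and 5.96 FPKM in the mutant library, while in wild type Hspa1b was at 0.75 and 0.79 and Hspa1a at 0.32 and 0.95 (differences of 2.57 and 2.12). The 2 lower genes encode the mitochondrial chaperonin: Hspd1 measured 122 against 379 and 333 (-1.53) and Hspe1 282 against 987 and 388 (-1.13), the second not counted without wild-type replicate 1 (-0.46) or under any of the 3 rescalings (-0.85, -0.85 and -0.60). The constitutive Hspa8 was level, at 0.0018. Of 27 chaperones and unfolded-protein-response genes of the endoplasmic reticulum, 5 were counted higher and none lower (median 0.53), a count near the 16.5% of all genes. Without wild-type replicate 2 it was 8, beside 2946 of all 11378 genes. The 5 were Pdia4, a disulphide isomerase (98.9 against 28.6 and 34.7, 1.62), the stress factor Xbp1 (1.11), the ubiquitin ligase Syvn1 (1.28), the cochaperone Dnajc3 (1.21) and the eIF2 kinase Eif2ak3 (1.26). Without wild-type replicate 1 the last 2 and Xbp1 were not counted (0.98, 0.94 and 0.84), and after quantile normalization Dnajc3 (0.95) and Eif2ak3 (0.76) were not. Of 20 partners of GdX and tail-anchored protein insertion genes, none was counted higher and 2 lower, beside 5.47% of all genes, Emc6 (-1.16) and Rnf126 (-1.02). Emc6 was not counted without wild-type replicate 1 (-0.72), Rnf126 not without replicate 2 (-0.93), and neither after globin-free rescaling (-0.89 and -0.75). In the list 2 genes were counted higher in that rescaling and also without replicate 2. Bag6 and Get4, whose proteins work with GdX as given above, differed by 0.05 and -0.62.

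Glycolysis genes were below wild type in part. Of 26 glycolysis and hypoxia-inducible genes, 4 were counted lower and 1 higher, against 5.47% and 16.5% of all genes, with a median of -0.36. Ldha, lactate dehydrogenase, measured 263 FPKM against 801 and 620.2 (-1.42), and Hk2, the inducible hexokinase, 4.87 against 19.3 and 21.2 (-1.86). Hk1, the constitutive hexokinase, was the higher one, at 1.00, and was not counted without wild-type replicate 1 (0.44). Of 22 cholesterol synthesis genes, 2 were counted higher, below the share of all genes, Dhcr7 (1.22) and Nsdhl (1.08). Neither was counted after quantile normalization (0.69 and 0.52), and Nsdhl not without wild-type replicate 1 (0.37). The higher count of the list was 1 without wild-type replicate 1 and 4 without replicate 2, where 1272 and 2946 of all 11378 genes were counted higher.

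Cell cycle genes were counted higher at about the rate of all genes. Of 32, 7 were counted higher, beside 16.5% of all genes, and none lower (median 0.63). The higher count was 2 under quantile normalization, 4 without wild-type replicate 1 and 14 without replicate 2. Over all 11378 genes those runs counted 951, 1272 and 2946 higher. Mki67, the proliferation antigen, measured 29.3 FPKM against 5.51 and 8.55 (1.94), and Ccnb2, a mitotic cyclin, 22.4 against 5.64 and 8.81 (1.53). Of 21 immediate early transcription factors, 3 were counted higher and 3 lower, against 16.5% and 5.47% of all genes. Myc, the growth regulator, measured 53.1 against 139.8 and 276 (-1.87) and Jun, a subunit of AP-1, 18.7 against 30.5 and 60.9 (-1.16). The higher genes were Btg2, an antiproliferative gene (77.8 against 22.9 and 23.2, 1.71), Klf2, a quiescence factor of lymphocytes (1.27), and Egr3 (1.51). Of 13 clock genes, Ciart, a repressor of the core clock, measured 2.10 against 24.0 and 25.2 (-3.05) and Nfil3 differed by -1.54. The core activator Arntl differed by 1.37, which was not counted without wild-type replicate 1 (0.99), and Jun was not counted without replicate 2 (-0.68).

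The most separated genes outside these lists were of varied function. Zbtb32, a repressor of lymphocyte activation genes, measured 2.82 FPKM in the mutant library and 37.4 and 38.6 in wild type (-3.35), and AA467197 16.3 against 194 and 105 (-3.05). Both were low in all 4 libraries at 90 min, at most 17.7 FPKM. On the higher side, Srpk3, a serine-arginine protein kinase, measured 20.8 against 0.53 and 0.66 (3.77), and Macf1, a crosslinker of actin and microtubules, 33.9 against 1.72 and 3.78 (3.28). Ephx1, an epoxide hydrolase, measured 45.3 against 3.54 and 4.08 (3.27), the integrin chain Itgb7 58.4 against 5.92 and 6.63 (3.03), and the B-cell inhibitory lectin Siglecg 82.9 against 6.66 and 10.9 (3.14). These genes were at 12.7 FPKM or more in every 90 min library, so that the 6 h wild-type libraries were the low ones. Atp2a3, a calcium pump, differed by 3.13 and the ubiquitin ligase gene Trim7 by 3.15. Some others stood above wild type at both times. The protease inhibitor genes Serpina1b and Serpina1d, near-identical copies whose reads can be split between them, differed by 3.21 and 2.91 at 6 h and by 1.61 and 1.33 at 90 min. Apol11b differed by 2.84 and 1.66, and Ctse, the protease cathepsin E, by 2.54 and 2.07.

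**Figure D4:**
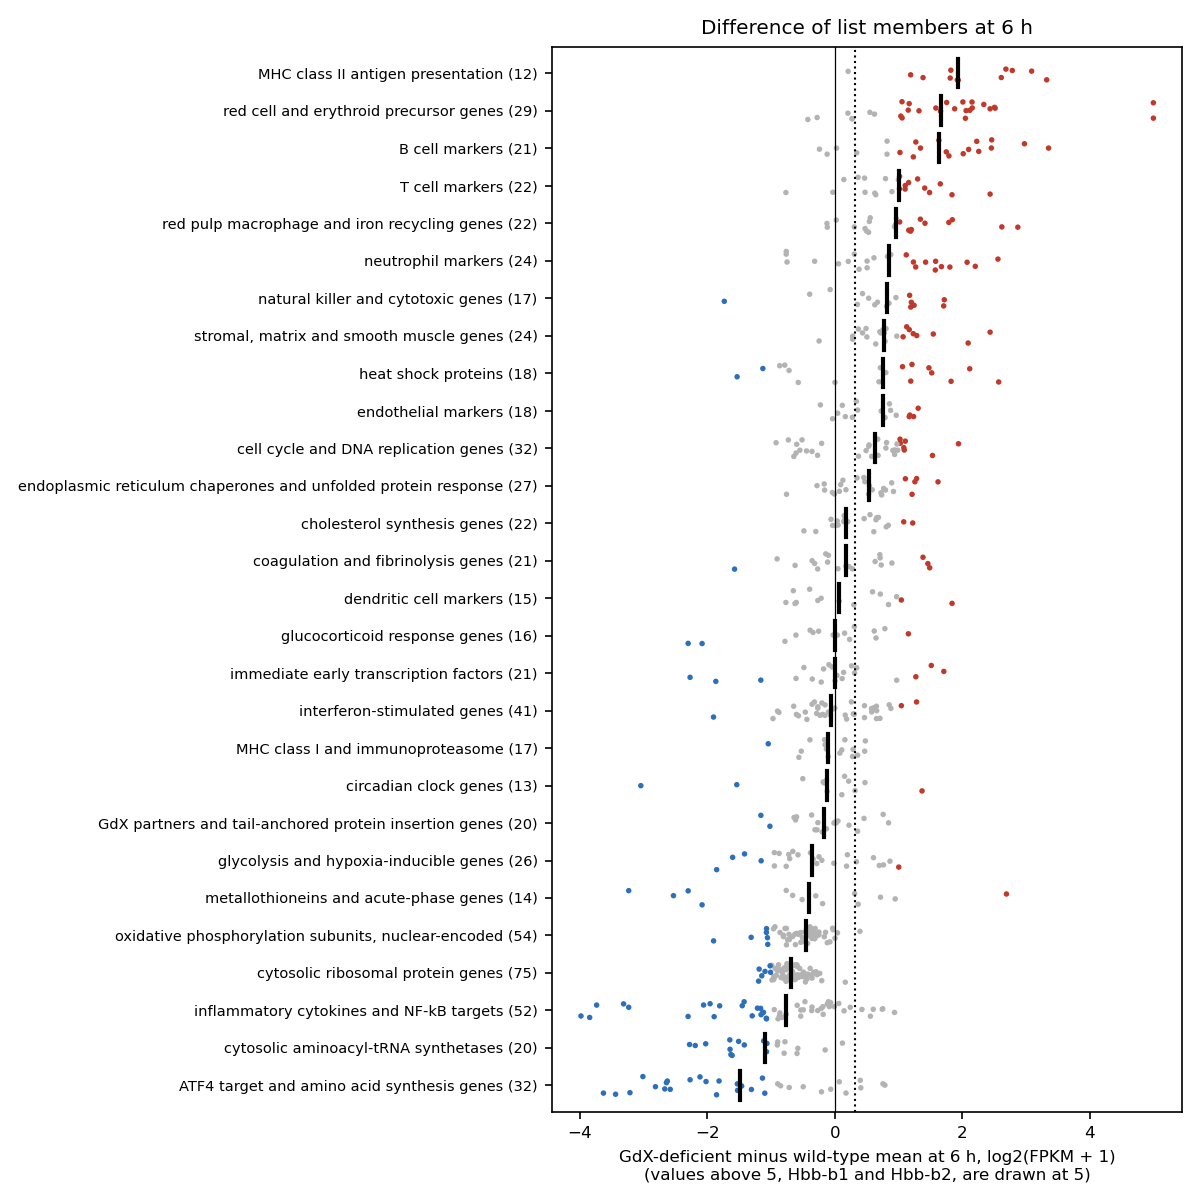
For 28 gene lists, the difference of log2(FPKM + 1) between the GdX-deficient and wild-type libraries at 6 h on the x axis, one point per compared gene (red counted higher, blue counted lower, grey not counted), with a black bar at the list median and a dotted line at the median of all genes, 0.32; Hbb-b1 and Hbb-b2, above 5, are drawn at 5. The medians of the ATF4 list and the tRNA synthetases lie left of 0, those of MHC class II, B cell and red cell genes right of it.

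Short transcripts behaved differently from long ones. Of 75 cytosolic ribosomal protein genes, 6 were counted lower and none higher, with a median of -0.68, and of 54 nuclear-encoded subunits of oxidative phosphorylation, 6 lower and none higher, with a median of -0.45. Beside the 5.47% of all genes counted lower, the first count is near the background and the second above it. Of the shortest genes (132 to 1162 bases), however, 14.3% were counted lower, and the share was smaller than that in both lists. For both lists the wild-type libraries disagreed. The ribosomal median was -1.06 against wild-type replicate 1 and -0.35 against replicate 2, where 43 and 0 genes were counted lower in turn, and the oxidative phosphorylation median was -0.77 and -0.22, with 17 and 1 genes counted lower. The example Rps12 measured 2563 FPKM in the mutant library and 7839.8 and 3397 in wild type, and was not counted without wild-type replicate 1 (-0.41).

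The 2 lists have short transcripts, with medians of 833 and 863 bases. Over the 11180 genes with a transcript length, the genotype difference had a Spearman rho of 0.32 with length, across genes that share the same 3 libraries and are not independent. It was 0.43 against wild-type replicate 1 and 0.13 against replicate 2, and the difference between the wild-type libraries had a rho of -0.59. In the shortest 10% of genes (median 879 bases) the median difference was -0.24, with 8.23% counted higher and 14.3% lower. In the longest 10% (median 7224 bases) it was 0.69, with 28.4% counted higher and 1.43% lower. The ATF4 and MHC class II lists have median lengths of 2282 and 1414 bases. When the trend on length was removed, 19 ATF4 list genes were counted lower and 2 higher, 11 class II genes were counted higher, and 15 inflammatory genes were counted lower. Of all 11180 genes 1843 were counted higher and 468 lower in that run. The part of transcript length in the remaining differences was not tested, and RNA integrity, which can move with such a trend, was not analysed here.

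**Figure D5:**
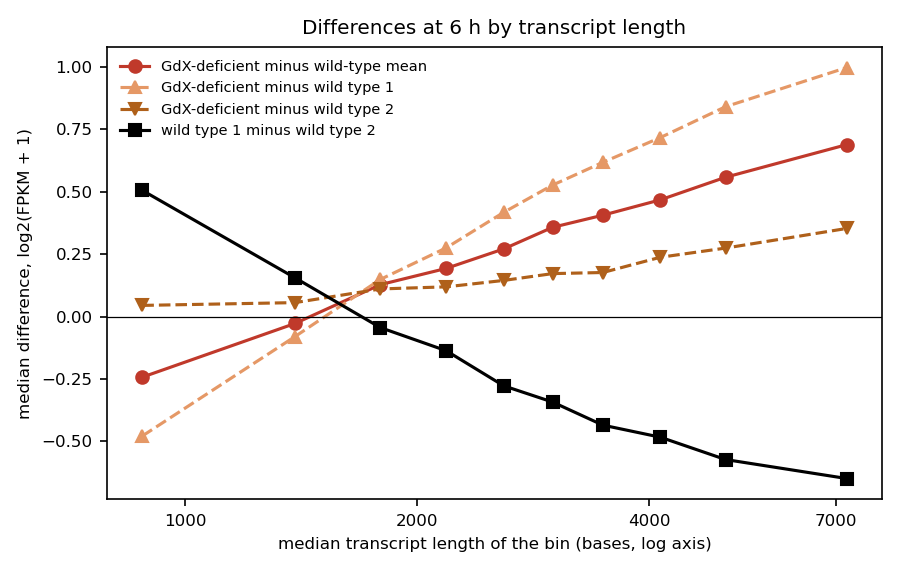
Median difference of log2(FPKM + 1) on the y axis against median transcript length in bases on the x axis (log scale) for the 11180 genes split by length into 10 bins of about equal size; the lines show the mutant library against the mean of the wild-type pair, against each wild-type library alone, and the wild-type libraries against each other. The mutant lines climb from the shortest to the longest bin, from -0.24 to 0.69 against the pair, and the line between the wild-type libraries runs from 0.51 down to -0.65.

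The 90 min libraries, taken from other mice, gave a smaller count by a stricter rule, since there both mutant libraries, and not 1, had to lie outside both wild-type values. The counts and shares at the 2 times are therefore not on the same footing. At 90 min 363 genes (3.19%) were counted, 189 higher (1.66%) and 174 lower (1.53%), with a median over all genes of 0.07. In the same direction at both times were 203 genes, 157 higher and 46 lower, which are 8.12% of those counted at 6 h and 55.9% of those counted at 90 min. A further 20 were counted in opposite directions. Of the inflammatory list 17 genes were counted lower at 90 min and none higher, with a median of -0.77. Il6 lay at 72.2 and 21.0 FPKM in the mutant and 185 and 120.3 in the wild-type libraries (-1.90), and Cxcl1 at 182 and 27.1 in the mutant and 513 and 359 in the wild-type libraries (-2.59). Ifng was not lower then, at 18.7 and 7.86 against 9.53 and 10.1 (0.29). The red cell list had 12 genes counted higher at 90 min and the neutrophil list 7, none lower in either. The 90 min count moved with single libraries: without GdX-deficient replicate 1 it was 1245, without wild-type replicate 2 it was 859, and without GdX-deficient replicate 2 it was 186.

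The labelled tissue was checked by its markers. B-cell, T-cell and red pulp macrophage genes were abundant in all 3 libraries, with sums of 3706, 1086 and 7656 FPKM in the mutant library. The last sum includes the ferritin chains Fth1 and Ftl1. Of 13 pancreas markers in the table, 12 were below the filter, and the remaining one, Cela1, measured 5.02 FPKM against 3.42 and 2.46. Of 9 fat markers, 2 passed the filter, Lpl at 5.50 against 2.58 and 1.61 (1.09, and 0.86, not counted, without wild-type replicate 2) and Fabp4 at 4.37 against 20.9 and 10.1 (-1.54).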

How the data were processed

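RNA of 7 mouse spleens was sequenced on a BGISEQ-500 instrument after mRNA enrichment by oligo(dT) selection or rRNA depletion, per the labels' protocols, which do not say which of them was used. Per the file headers, the authors deposited FPKM values in 1 table, a column for each library. The submitters' processing notes name HISAT, HISAT2 2.0.4, Bowtie2, RSEM and GRCm38.p5, with no roles. Groups follow the sample titles. Depth, 18000000 to 20100000 fragments per library, was estimated from the step size of low FPKM values and limits counts of low genes. Differences of log2(FPKM + 1) were computed in Python 3.11.15 with pandas 2.3.3 and numpy 2.4.6. With 1 mutant library no test was run. RefSeq promoters were matched by Entrez identifier for 9146 of 11378 genes.

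The gene sets, the naming rule and the alternatives were chosen with earlier results of these data known, and 3 of the 33 gene lists were written after the values were seen. Named were Ubl4a, Gm44504, 16 core genes, the 15 genes of each direction farthest from the nearer wild-type library (antigen receptor segments and genes with predicted names left out) and up to 5 per list and direction. Other members of lists are named after their values were seen. Alternatives tried were a pseudocount of 0.1, a filter at a mean of 5 or none, quantile normalization, rescaling without globin genes, removal of the trend on transcript length, and leaving out each replicate. Results that need items withheld for evaluation are not reported here.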

Additional observations from a re-analysis of the deposited data

Results flagged for a closer look

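Among the 163 genes taken by the naming rule, 18 had a 6 h difference and a 90 min difference of opposite sign. In these, every mutant library lay beyond both wild-type libraries at each time. The share of all genes that meet this rule was not computed. At 6 h alone, 54.9% of all genes lay above both wild-type libraries and 25.3% below both. The change between the times was not tested, and the 6 h value rests on 1 mutant library.

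Of these, 10 are stromal, endothelial or protease genes, and they stood above wild type at 6 h and below it at 90 min. Des differed by 2.09 at 6 h and -1.29 at 90 min, Cnn1, a smooth muscle protein, by 1.17 and -1.81, Col1a1 by 1.55 and -0.99, and Serpinh1, the collagen chaperone, by 1.48 and -1.24. Pdgfrb, a receptor of pericytes, differed by 1.23 and -0.51. The endothelial genes Plvap (1.31 and -1.17), Thbd (1.46 and -1.11), Ptprb (1.18 and -0.15) and Stab2 (1.24 and -0.25) and the protease gene Plau (1.49 and -0.85) followed the same order. The stromal list summed to 529 and 363 FPKM in the mutant and 1142 and 916 in the wild-type libraries at 90 min, and to 817 in the mutant and 501 and 562 in the wild-type libraries at 6 h.

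Other genes with the same order were Cd5l (2.62 and -0.53), Ltb, a lymphocyte cytokine (1.75 and -0.49), Btg2 (1.71 and -0.35), Il1b (0.56 and -0.95) and the fat tissue marker Lpl (1.09 and -0.26). Asns (-1.53 and 0.10), Slc7a3 (-3.44 and 0.18) and the phosphofructokinase gene Pfkp (-1.16 and 0.14) had the reverse order. Their 90 min differences were small, and Asns lay at 7.83 and 7.19 FPKM in the mutant and 6.92 and 6.92 in the wild-type libraries then.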

How the results depend on the processing

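The 2501 counted genes became 1887 without wild-type replicate 1 and 3830 without replicate 2, and the 1879 higher genes 1272 and 2946 in turn. The higher count was 1225 with a mean FPKM of at least 5, 951 after quantile normalization and 2857 after globin-free rescaling; the lower count, 622, was 352 after that rescaling. The median over all genes, 0.32, was 0.12 with no filter, -0.017 after quantile normalization, 0.55 after globin-free rescaling, 0.18 without wild-type replicate 1 and 0.46 without replicate 2. Removing the trend on transcript length, an alternative added for this value after the data were seen, brought its rho from 0.32 to -0.0026 by construction. Leaving out 1 library at 90 min gave counts from 186 to 1245, among them 859 without wild-type replicate 2. For the scalings and filters the cause was not tested.

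Of 33 list medians, 11 changed sign under at least 1 alternative and 22 under none. MHC class I went from -0.10 to 0.20 (quantile), 0.17 (globin-free), 0.10 (length) and 0.037 (without replicate 1), and was -0.042 without replicate 2. Coagulation went from 0.17 to -0.026 (mean of at least 5) and -0.037 (quantile), and lymphocyte cytokines from 0.49 to -0.024 (no filter) and -0.025 (quantile). The others were interferon-stimulated, GdX partner, dendritic cell, clock, immediate early, glucocorticoid, cholesterol and fat genes, each with a main median between -0.22 and 0.18.

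Of 156 named genes that were counted, 121 were still counted after quantile normalization, 141 after globin-free rescaling, 126 without wild-type replicate 1 and 151 without replicate 2, and 128 of 154 after length trend removal. None of them reversed in these runs.

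No paired analysis was possible because the 6 h groups share only replicate number 1 and no result comes from a test. With 1 mutant library, animal and genotype cannot be told apart.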

Other observations

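Genes of ribosome assembly were lower almost throughout, in a list written after the values were seen and so given as a description. Of 35 factors, 34 were counted lower at 6 h in the mutant library, beside 5.47% of all genes, and none higher, with a median of -1.58 (-1.48 and -1.53 against each wild-type library alone). Ncl, the nucleolar protein nucleolin, measured 143 FPKM in the mutant library and 608 and 666 in wild type (-2.15). Npm1, nucleophosmin, measured 542 against 2053 and 1641 (-1.76), and Fbl, the methyltransferase fibrillarin, 134 against 669.8 and 388 (-1.92). Polr1a, the largest subunit of RNA polymerase I, measured 13.1 against 26.8 and 41.5 (-1.28). The member not counted was Utp15 (-0.68). Unlike the ribosomal proteins, these genes have transcripts of middling length (median 2785 bases), and 32 were counted lower after the trend on length was removed, 25 after globin-free rescaling and 26 without wild-type replicate 2. At 90 min the median was -0.52, with 2 counted lower, beside 1.53% of all genes at that time. Myc, a known activator of such genes, lay below wild type in the same library, as given above, and its part in these values was not tested.

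Cytokines of lymphocytes and innate lymphoid cells, also listed after the values were seen, differed in both directions. Il22, which acts on epithelia, measured 0.17 FPKM in the mutant library and 4.84 and 8.75 in wild type (-2.69). Il17a was listed at 0 against 1.20 and 2.14 and Il17f at 0.04 against 1.61 and 4.30; both had a mean below the filter over the 7 libraries. Ltb and Xcl1, a chemokine for cross-presenting dendritic cells, were higher, at 1.75 and 1.51. Of the list, 4 of 10 compared genes were counted higher and 2 lower, against 16.5% and 5.47% of all genes.

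Another list written after the values were seen held splicing and chromatin genes with long transcripts (median 8397 bases). Of 20, 10 were counted higher (4 without wild-type replicate 1 and 7 under quantile normalization) and none lower, beside 16.5% of all genes and 28.4% of the longest 10% of genes counted higher, with a median of 0.94, which was 1.66 against wild-type replicate 1 and 0.45 against replicate 2. Kmt2d, a histone methyltransferase, measured 19.9 FPKM against 3.65 and 8.26 (1.67). After removal of the trend on length 3 of the list were counted higher, beside 1843 of 11180 genes. Without wild-type replicate 1 and under quantile normalization, 1272 and 951 of all 11378 genes were counted higher.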
